A study of Mus musculus with 8 samples.

Results

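The metallothioneins and the genes that sense and move zinc were examined in the thymus of mice flown in space and of mice kept on the ground. Mt1, Mt2, Mt3, Mt4, Mtf1, Slc30a1, Slc39a10 and Slc39a6 make up the set, 8 of the 19938 genes measured. They were chosen by name with earlier results of this comparison known, so the differences between the groups given for them are descriptions of where they lie among all genes and not independent tests. Each of the 8 genes was read by 1 Affymetrix probe set that names no other gene, so no choice among probe sets was needed. The spaceflight group held 4 C57BL/6NTac mice, aged 8 weeks, that spent 13 days aboard the space shuttle. The ground-control group held 4 mice of that strain, matched in age and sex and housed in the same type of animal enclosure module. Thymus RNA of each mouse was hybridised to 1 array, and all values below are log2 expression values on the deposited scale, where a difference of 1 is a doubling. No gene was altered in either group, and the time from landing to dissection is not given in the sources used here. All 4 spaceflight mice flew on 1 mission, so effects of flight and of that mission or its housing cannot be told apart.

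Metallothioneins are small cysteine-rich proteins that bind zinc and copper, buffer the pool of free zinc and take up oxidants. Mt1 and Mt2 are made in most tissues and are induced by zinc, by glucocorticoids and by inflammatory cytokines, whereas Mt3 is known from the brain and Mt4 from stratified epithelium. Mtf1 is the transcription factor that senses zinc: it binds metal response elements, switches on Mt1, Mt2 and the zinc exporter gene Slc30a1, and in mouse cells holds down the importer gene Slc39a10. Slc39a10 and Slc39a6 encode closely related importers, ZIP10 and ZIP6, of the plasma membrane. Zinc deficiency is known to shrink the thymus and to deplete developing T cells.

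The promoter windows of Mt1, Mt2, Mt3 and Slc30a1 are shown, a choice made with the motif counts known, because Mt1 and Mt2 lay higher together after flight, Mt3 is their neighbour in the gene cluster, and Slc30a1 is the other classic Mtf1 target among the 8 genes. Each window is RefSeq sequence of build GRCm38.p6, 5′ to 3′ on the plus strand, from 250 bases before to 50 bases after the start site that the RefSeq promoter table uses. That site is the outer end of the gene for Mt2 and Mt3, but lies 206 bases inside the annotated gene for Mt1 (at 94179089) and 84 bases inside it for Slc30a1 (at 191906781). Capitals mark the core of the metal response element, TGCACNC or TGCGCNC, on either strand.
Mt1: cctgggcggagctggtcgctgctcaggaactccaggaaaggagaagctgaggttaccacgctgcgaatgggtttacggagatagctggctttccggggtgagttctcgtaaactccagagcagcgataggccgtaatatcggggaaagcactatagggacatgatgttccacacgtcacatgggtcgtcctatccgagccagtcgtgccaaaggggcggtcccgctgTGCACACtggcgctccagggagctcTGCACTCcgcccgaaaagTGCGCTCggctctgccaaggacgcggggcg
Mt2: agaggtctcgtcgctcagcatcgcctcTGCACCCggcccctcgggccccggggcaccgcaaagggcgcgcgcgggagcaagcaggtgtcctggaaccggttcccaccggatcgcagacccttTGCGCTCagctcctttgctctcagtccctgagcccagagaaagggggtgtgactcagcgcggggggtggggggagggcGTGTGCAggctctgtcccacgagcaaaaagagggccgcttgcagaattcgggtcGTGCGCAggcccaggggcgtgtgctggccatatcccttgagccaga
Mt3: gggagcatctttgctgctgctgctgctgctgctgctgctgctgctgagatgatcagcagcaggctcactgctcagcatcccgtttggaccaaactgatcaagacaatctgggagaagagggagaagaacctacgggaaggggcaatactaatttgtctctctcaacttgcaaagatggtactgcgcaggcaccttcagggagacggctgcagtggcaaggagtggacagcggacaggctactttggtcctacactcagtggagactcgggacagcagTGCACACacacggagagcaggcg
Slc30a1: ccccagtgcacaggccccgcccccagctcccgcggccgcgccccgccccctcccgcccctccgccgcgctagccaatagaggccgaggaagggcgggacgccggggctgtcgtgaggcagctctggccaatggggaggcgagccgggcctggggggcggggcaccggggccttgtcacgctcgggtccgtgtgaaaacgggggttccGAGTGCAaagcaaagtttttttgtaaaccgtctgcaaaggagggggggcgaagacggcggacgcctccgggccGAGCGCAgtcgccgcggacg
The windows lie at chr8:94178839-94179138 for Mt1, chr8:94172368-94172667 for Mt2, chr8:94152357-94152656 for Mt3 and chr1:191906531-191906830 for Slc30a1. The core was present 3 times for Mt1, 4 times for Mt2, 2 times for Slc30a1 and 1 time each for Mt3 and Mt4. Among all 32851 promoter windows of this length, 25.7% held it at least 1 time, 7.11% at least 2 times, 1.97% at least 3 times and 0.517% at least 4 times. In the Mt1 window the cores began at -23, 3 and 21, counted from the start site at 94179089. In the Mt2 window they began at -223, -128, -50 and 5. No promoter window was used for Slc39a6. The window of Mtf1 and both windows of Slc39a10 (chr1:46925727-46926026 and chr1:46853569-46853868, minus strand) did not contain these letters. A glucocorticoid response element was searched on both strands as G, any base, ACA, 3 bases of any kind, TGT, any base and C. It was found in the Mt1 window at -94 and in no other window used for the set, against 0.475% of all windows. The antioxidant response element core, TGACNNNGC on both strands, was found 1 time each in the Mt2 and Slc30a1 windows, against 12.4% of all windows. No match of one motif overlapped a match of another in these windows. These matches describe letters and do not show that a factor binds there.

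Mt1 and Mt2, the common metallothioneins, had higher levels in the spaceflight thymus, and these were among the larger upward differences on the array. Mt1 measured 9.57, 10.10, 10.07 and 10.23 in spaceflight replicates 1 to 4, against 9.16, 9.25, 9.54 and 9.01 in ground-control replicates 1 to 4. All 4 spaceflight arrays lay above all 4 ground-control arrays, but by a gap of only 0.03 between spaceflight replicate 1 and ground-control replicate 3. The group means were 9.99 ± 0.29 in spaceflight and 9.24 ± 0.22 in ground control (SD, n = 4 each), a difference of 0.75 ± 0.16 (SE) or 1.68-fold, with a limma adjusted p of 0.217 over all genes. This was the 15th highest difference of the 19938 genes.

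Mt2 measured 8.27, 8.98, 8.65 and 9.41 in spaceflight replicates 1 to 4, against 7.49, 8.10, 8.31 and 7.52 in ground-control replicates 1 to 4. The groups overlapped: 3 of the 4 spaceflight arrays lay above every ground-control array, and spaceflight replicate 1 lay 0.04 below ground-control replicate 3. The means were 8.83 ± 0.48 in spaceflight and 7.85 ± 0.41 in ground control, a difference of 0.97 ± 0.26 (SE) or 1.96-fold (limma adjusted p = 0.321). It was the 5th highest difference of all genes, although the spread of Mt2 within each group was wider than that of Mt1. Both genes were lowest of their group in spaceflight replicate 1 and highest in spaceflight replicate 4, and both were highest of the ground-control arrays in replicate 3.

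Mt3 and Mt4, which lie in the same cluster on chromosome 8, had overlapping groups. The cluster runs in the order Mt4 (94137204-94139031), Mt3 (94152607-94154148), Mt2 (94172618-94173567) and Mt1 (94178883-94180327) in GRCm38.p6. Mt3, the brain metallothionein, ranged from 6.89 to 7.30 in spaceflight and from 6.93 to 7.29 in ground control, a difference of 0.09 with a 95% interval from -0.20 to 0.38 (limma adjusted p = 0.782). Mt4, the epithelial metallothionein, ranged from 6.05 to 6.84 in spaceflight and from 6.13 to 6.84 in ground control, a difference of -0.11 with a 95% interval from -0.60 to 0.38 (limma adjusted p = 0.851). In both genes the 2 groups covered nearly the same range. Mt4 had 2 spaceflight arrays near 6.8 and 2 near 6.1, and ground-control replicate 4, at 6.13, was with the lower values. The intervals leave room for differences of up to 0.38 upward in either gene.

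**Figure D1:**
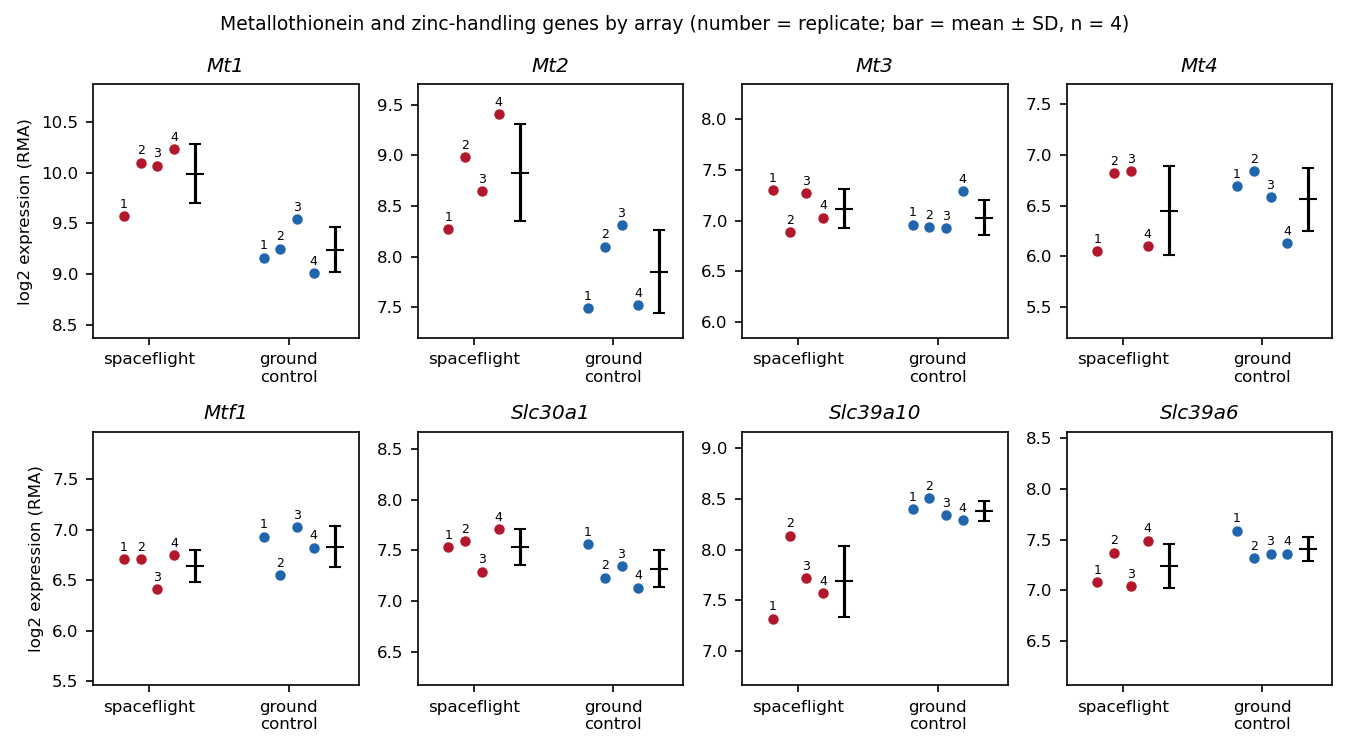
Log2 expression of the 8 genes on each array (y axis, the same span of 2.5 in every panel), spaceflight in red and ground control in blue, with replicate numbers and mean ± SD (n = 4 each). The groups separate for Mt1 (higher in spaceflight) and Slc39a10 (lower in spaceflight), overlap by 0.04 for Mt2, and overlap for the other 5 genes.

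Slc39a10, the importer gene that Mtf1 holds down in mouse cells, lay lower in the spaceflight thymus. It measured 7.32, 8.14, 7.72 and 7.57 in spaceflight replicates 1 to 4, against 8.40, 8.51, 8.34 and 8.29 in ground-control replicates 1 to 4. All 4 spaceflight arrays lay below all ground-control arrays, with a gap of 0.15. The means were 7.69 ± 0.35 in spaceflight and 8.38 ± 0.10 in ground control, a difference of -0.70 ± 0.16 (SE), 1.62-fold lower (limma adjusted p = 0.236). The spaceflight arrays spread over 0.82 and the ground-control arrays over 0.22. In order from the lowest, it was the 139th difference of all genes.

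Slc30a1, the plasma membrane zinc exporter, measured 7.53, 7.59, 7.29 and 7.71 in spaceflight replicates 1 to 4, against 7.56, 7.23, 7.34 and 7.13 in ground-control replicates 1 to 4. Its groups overlapped, and 3 of the 4 spaceflight arrays were above 7.5. The difference was 0.22 ± 0.13 (SE), with a 95% interval from -0.07 to 0.50 (limma adjusted p = 0.541). Slc39a6, the close relative of Slc39a10, ranged from 7.04 to 7.49 in spaceflight and from 7.32 to 7.59 in ground control. Its difference was -0.16, with a 95% interval from -0.45 to 0.12 (limma adjusted p = 0.613). Mtf1, the zinc sensor itself, ranged from 6.41 to 6.75 in spaceflight and from 6.55 to 7.02 in ground control. Its difference was -0.19, with a 95% interval from -0.48 to 0.10 (limma adjusted p = 0.585). Neither Slc39a6 nor Mtf1 differed beyond the spread of its arrays.

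Read against all genes, 0 of the 8 passed an adjusted p of 0.05, where 0.0502% of all genes did (0.01% higher and 0.0401% lower). At an unadjusted p under 0.05, the limma fit held Mt1, Mt2 and Slc39a10, 2 higher and 1 lower of 8, against 3.05% of all genes higher and 7% lower. Groups that did not overlap were seen for Mt1, higher, and Slc39a10, lower, against 1.73% of all genes higher and 4.28% lower, 6.01% in all. Since the genes were picked with this comparison in view, these counts are given without further reading. The median difference of the 8 genes was -0.01 and that of all genes -0.02.

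Gene values spread less on 2 of the spaceflight arrays, replicates 1 and 3, each with an interquartile range of 2.22. It was 2.69 and 2.73 on the remaining spaceflight arrays and 2.55 to 2.84 on the ground-control arrays. When genes were divided by mean level into 5 groups, the brightest, which holds Mt1, Mt2 and Slc39a10, had a median difference of -0.13. Without these 2 arrays that median was 0.00. Mt1 then differed by 0.92 ± 0.15 (SE), Mt2 by 1.34 ± 0.25, Slc30a1 by 0.34 ± 0.14 and Slc39a10 by -0.53 ± 0.16, and limma adjusted p-values were 0.145, 0.194, 0.702 and 0.548. The differences of Mt1 and Mt2 were thus larger without both arrays than with them (0.75 and 0.97), and that of Slc39a10 was smaller. Only spaceflight replicates 2 and 4 were left in that setting. Over all 19 alternative settings Mt1 ranged from 0.67 to 0.92, Mt2 from 0.78 to 1.34, Slc30a1 from 0.16 to 0.34 and Slc39a10 from -0.85 to -0.53. Mt1, Mt2 and Slc39a10 were at an unadjusted limma p under 0.05 in 19 of 19 settings, Slc30a1 in 4 of 19, and no gene of the 8 passed the adjusted threshold in any of them.

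**Figure D2:**
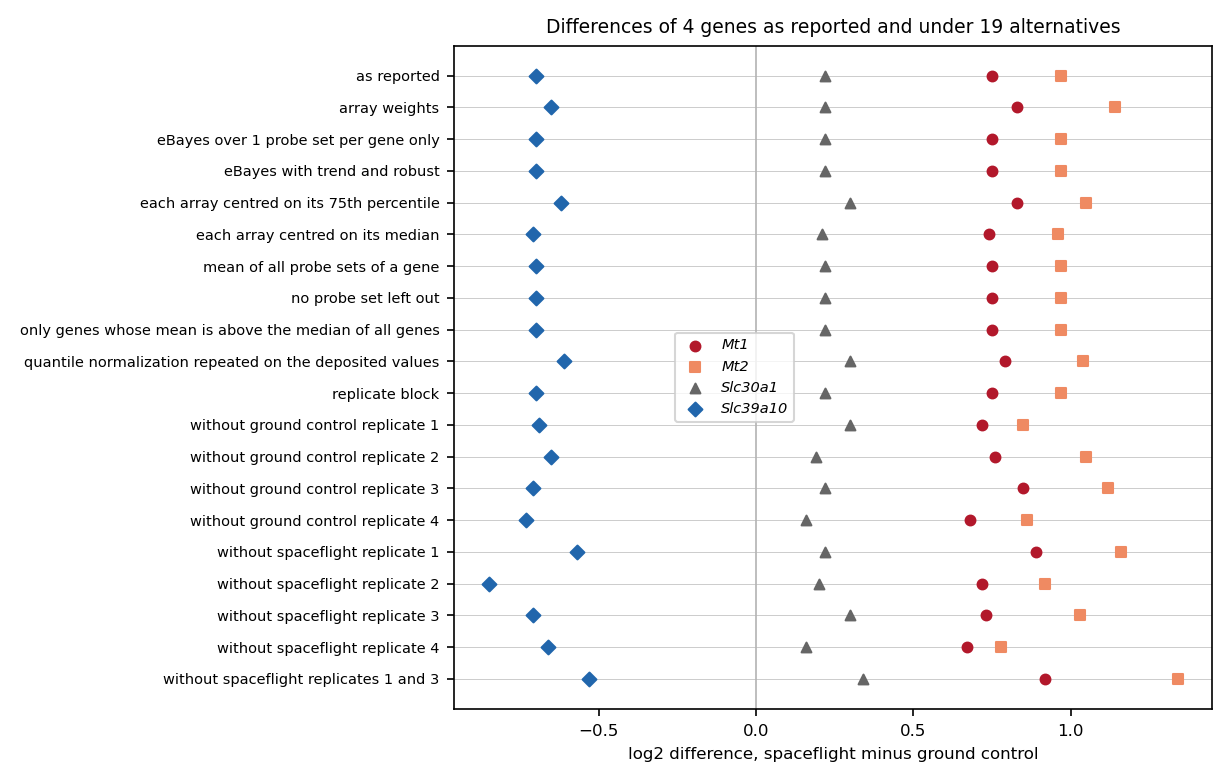
Log2 difference, spaceflight minus ground control (x axis), of Mt1, Mt2, Slc30a1 and Slc39a10 as reported and under 19 alternatives (rows). Mt1 and Mt2 stay right of 0 in every row, between 0.67 and 1.34, Slc39a10 stays left of 0, between -0.85 and -0.53, and Slc30a1 lies between 0.16 and 0.34.

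The lobes carried the markers of thymocytes and varied in markers of other tissue. Genes of double-positive thymocytes, the main cells of the thymus, had list means (7 of 8 measured) from 10.20 to 10.44 in spaceflight and from 10.41 to 10.51 in ground control. All 7 had lower means in spaceflight, against 53.5% of all genes, with a median of -0.15, and of -0.06 without spaceflight replicates 1 and 3. Rag1 and Rag2, which together encode the receptor gene recombinase, differed by -0.02 and -0.25, and the coreceptor gene Cd8a by -0.22. Groups did not overlap for 2 of the 7 genes, Rag2 and Cd8a, by gaps of 0.04 each, against 4.28% of all genes lower. Thymic epithelial genes had lower means in spaceflight in 9 of 9 cases, against 53.5% of all genes. Their list means ran from 8.57 to 8.92 in spaceflight and from 9.09 to 9.15 in ground control. At an unadjusted limma p under 0.05, 0 were higher and 4 lower, against 3.05% and 7% of all genes, and 0 passed the adjusted threshold. Groups did not overlap for 3 of the 9, all lower, against 4.28% of all genes lower. The epithelial list had a median difference of -0.25, and of -0.11 without spaceflight replicates 1 and 3. In whole lobes, fewer cells of a type and less RNA per cell cannot be told apart. Airway epithelial genes, which thymocytes do not make, had list means (5 of 5 measured) from 5.28 to 9.60 in spaceflight and from 8.65 to 11.20 in ground control. Spaceflight replicate 1, the lowest spaceflight array for Mt1, Mt2 and Slc39a10, was also the lowest array for the airway (5.28), fat (7.60) and muscle (6.14) lists. Ground-control replicate 3, the highest ground-control array for Mt1 and Mt2, was the highest array for the airway (11.20), endothelial (8.00) and fibroblast (8.66) lists. Without spaceflight replicate 1, Mt1 differed by 0.89, Mt2 by 1.16 and Slc39a10 by -0.57. Without ground-control replicate 3 the differences were 0.85, 1.12 and -0.71. Dendritic cell and macrophage genes (9 of 9 measured) had list means from 6.90 to 7.85 in spaceflight and from 7.52 to 7.81 in ground control. Of the 9, 8 had lower means in spaceflight, against 53.5% of all genes. Their median difference was -0.29, and 0.11 without spaceflight replicates 1 and 3. Among spaceflight arrays this list, like Mt1 and Mt2, was lowest in replicate 1 and highest in replicate 4. So were the airway, neutrophil, zinc importer, copper handling, iron handling and interleukin 6 lists. Liver genes, of a tissue that makes much Mt1 and Mt2, ran the other way from the metallothioneins. Their list means (5 of 5 measured) lay from 5.33 to 5.69 in spaceflight and from 5.74 to 7.56 in ground control, and albumin, Alb, ranged from 4.88 to 5.46 in spaceflight and from 6.10 to 9.95 in ground control. The part of these other tissues in the values of Mt1, Mt2 and Slc39a10 was not tested.

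In the rest of the zinc transporter families, taken whole apart from the 3 transporters of the set, no gene passed the test. Most SLC30 proteins carry zinc out of the cytosol and most SLC39 proteins carry it in. Genes were taken by family name, whatever else they carry, and all 10 SLC30 and 14 SLC39 genes were measured. Of the 21 genes outside the set examined here, 0 were higher and 0 lower at an unadjusted limma p under 0.05, against 10.1% of all genes, and 0 passed the adjusted threshold. Their differences ran from -0.38 to 0.33, and their 95% intervals reached from -0.77 to 0.75. Slc39a10 was the 1 of 24 transporters at an unadjusted p under 0.05. The test does not show that the other transporters were unaffected, since the interval of Slc39a4, from -0.77 to 0.02, includes a difference the size of that of Slc39a10.

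Among exporters, Slc30a5 and Slc30a6, partners that load zinc into the secretory pathway, differed by -0.24 ± 0.15 (SE) and -0.17 ± 0.14. Slc30a3, which fills synaptic vesicles with zinc in the brain, differed by 0.15 ± 0.11. Exporters had a median difference of 0.02, with 5 of 10 means above and 5 below 0. Among importers, Slc39a4, the importer of the gut, ranged from 5.49 to 5.89 in spaceflight and from 5.73 to 6.58 in ground control, a difference of -0.38 ± 0.18 (limma adjusted p = 0.499). Slc39a2, another SLC39 importer, measured 6.71, 5.84, 6.71 and 6.20 in spaceflight replicates 1 to 4 and from 5.86 to 6.20 in ground control, a difference of 0.33 ± 0.19 (limma adjusted p = 0.538). Its 2 high arrays were spaceflight replicates 1 and 3. Slc39a14, an importer of zinc and iron, differed by -0.14 ± 0.10. Importers had a median of -0.14, with 10 of 14 means below 0, beside a median of -0.02 and 53.5% below 0 for all genes. Without spaceflight replicates 1 and 3 the medians were 0.05 for exporters and -0.05 for importers.

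**Figure D3:**
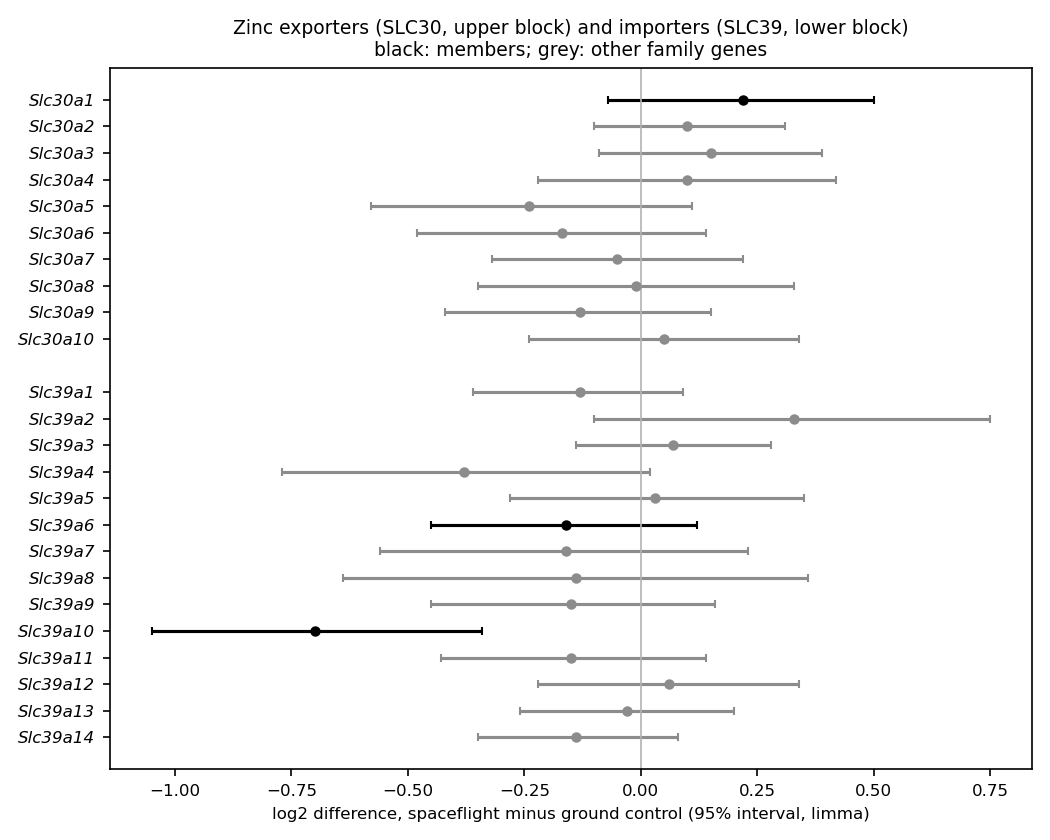
Log2 difference, spaceflight minus ground control, with its 95% interval from the limma fit (x axis), for the 10 SLC30 exporters (upper block) and 14 SLC39 importers (lower block), with genes of the set in black. The interval of Slc39a10, from -1.05 to -0.34, is the only 1 of 24 that does not reach 0.

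Genes known as Mtf1 targets outside the metallothioneins had 3 of 9 means above 0, against 46.5% of all genes. The list mixes genes that Mtf1 switches on with Slc39a10, which it holds down, so its counts by direction do not measure Mtf1 activity. It also includes Slc30a1 and Slc39a10 of the set, which were chosen with earlier results known. Of the 9 measured, 0 were higher and 2 lower at an unadjusted p under 0.05, against 3.05% and 7% of all genes, and 0 passed the adjusted threshold. Besides Slc39a10, these were Selenow, a small selenoprotein, which ranged from 8.36 to 9.12 in spaceflight and from 8.90 to 9.57 in ground control (difference -0.50 ± 0.19, limma adjusted p = 0.447). Gclc, the catalytic subunit of the first enzyme of glutathione synthesis, and Csrp1, a LIM domain protein, each differed by -0.29 ± 0.14. The median of the list was -0.07, and -0.12 without spaceflight replicates 1 and 3.

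Genes of copper and iron handling were set beside those of zinc. Of 11 copper handling genes measured, 0 were higher and 0 lower at an unadjusted p under 0.05, against 3.05% and 7% of all genes. Their differences ran from -0.24 to 0.08. The copper chaperones Atox1 and Sco1 each differed by -0.24, the low-affinity transporter Slc31a2 by -0.16 and the copper pump Atp7b by 0.08. Of 14 iron handling genes, 0 were higher and 2 lower at an unadjusted p under 0.05, against 3.05% and 7% of all genes, with a median of -0.16. Slc25a37, the mitochondrial iron importer, differed by -0.29 ± 0.12 (limma adjusted p = 0.475), and Trf, the plasma iron carrier transferrin, by -0.61 ± 0.26 (adjusted p = 0.488). Cp, the copper-bearing ferroxidase ceruloplasmin, differed by -0.56 ± 0.27 and Aco1, an iron-sensing RNA-binding protein, by -0.30 ± 0.14. Trf and Cp were lowest in spaceflight replicate 1, at 8.69 and 6.86. Without spaceflight replicates 1 and 3 the iron list had a median of -0.01.

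Other pathways known to induce metallothioneins were set beside them. Glucocorticoid receptor targets outside the metallothioneins had 11 of 13 means above 0, against 46.5% of all genes, and a median of 0.21, which was 0.33 without spaceflight replicates 1 and 3. At an unadjusted p under 0.05, 2 were higher and 1 lower, against 3.05% and 7% of all genes, and 0 passed the adjusted threshold. Txnip, an inhibitor of thioredoxin, measured 11.67, 11.59, 11.38 and 11.95 in spaceflight replicates 1 to 4, against 11.02, 11.25, 11.35 and 11.05 in ground control, a difference of 0.48 ± 0.14 (limma adjusted p = 0.351). Its groups did not overlap. Fkbp5, a co-chaperone of the steroid receptor complex, measured 10.64, 9.98, 9.43 and 10.00 in spaceflight replicates 1 to 4 and from 9.38 to 9.54 in ground control (difference 0.54 ± 0.21, adjusted p = 0.447). Fkbp5 was thus highest in spaceflight replicate 1, the spaceflight array in which Mt1 and Mt2 were lowest. The mean of the whole list was 8.59, 8.55, 8.26 and 8.74 in spaceflight replicates 1 to 4. Like Txnip, it was highest in spaceflight replicate 4, as Mt1 and Mt2 were, and lowest in spaceflight replicate 3. In ground-control replicates 1 to 4 the list mean was 8.26, 8.35, 8.54 and 8.23. There it was highest in replicate 3, as Mt1 and Mt2 were, and lowest in replicate 4, as Mt1 was. The part of glucocorticoid signalling in the values of Mt1 and Mt2 was not tested. The transcription factor Zbtb16 differed by 0.53 ± 0.25, and Dusp1, a phosphatase of MAP kinases, by -0.53 ± 0.24.

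Genes of the interleukin 6 and Stat3 response had 2 of 12 means above 0, against 46.5% of all genes. Their median was -0.16, which was 0.01 without spaceflight replicates 1 and 3. At an unadjusted p under 0.05, 0 were higher and 1 lower, against 3.05% and 7% of all genes. That gene was Bcl3, a nuclear partner of NF-κB (difference -0.42 ± 0.15, limma adjusted p = 0.428). Saa3, an acute-phase protein, differed by -0.43 ± 0.22, and Il6st, the shared receptor subunit gp130, by -0.21 ± 0.12. Serpina3n, a secreted protease inhibitor, differed by 0.50 ± 0.31, with 7.60, 8.74, 7.94 and 9.19 in spaceflight replicates 1 to 4 against 7.63 to 8.25 in ground control. Targets of Nrf2, the regulator of the antioxidant response, had 3 of 11 means above 0, against 46.5% of all genes. Their differences ran from -1.30 to 0.59, with a median of -0.19, which was -0.02 without spaceflight replicates 1 and 3. At an unadjusted p under 0.05, 0 were higher and 2 lower, against 3.05% and 7% of all genes. Me1, the cytosolic malic enzyme, differed by -1.30 ± 0.23 (adjusted p = 0.112), and Gsr, glutathione reductase, by -0.31 ± 0.14. Slc7a11, the cystine importer, differed by 0.53 ± 0.26, with 10.14 in spaceflight replicate 1 and 8.66 to 9.15 in the other spaceflight arrays, against 8.52 to 8.84 in ground control.

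**Figure D4:**
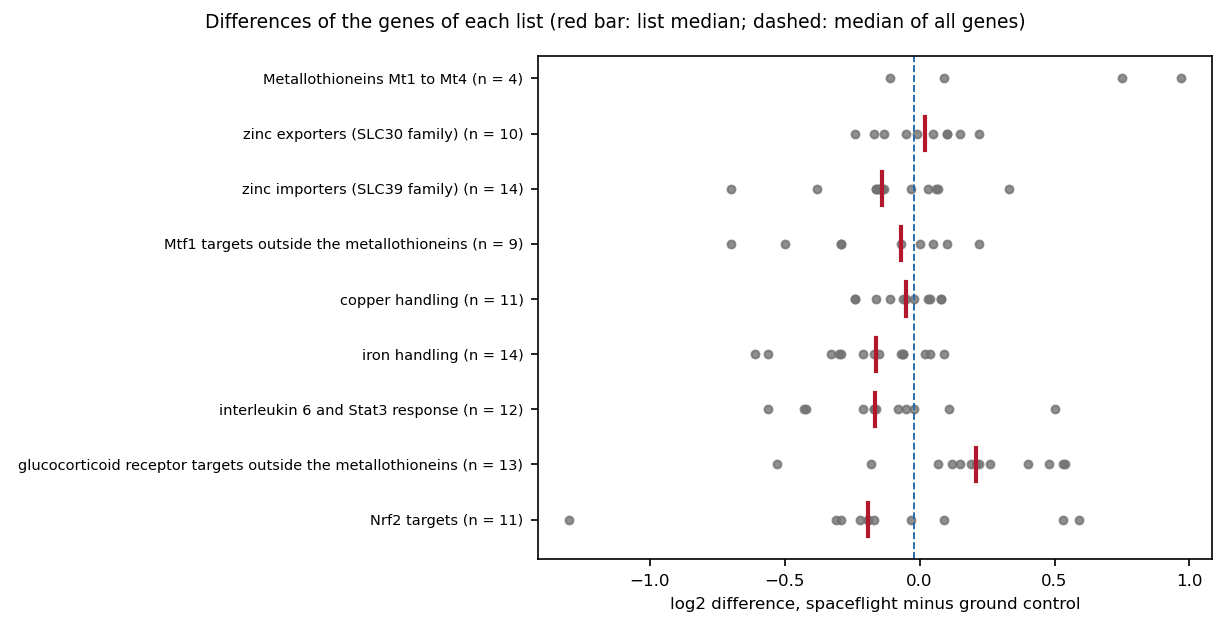
Log2 difference, spaceflight minus ground control (x axis), of each gene (points) of the metallothioneins and of 8 lists (rows), with the median of each list as a red bar and the median of all genes, -0.02, as a dashed line. Mt1 and Mt2 lie at 0.75 and 0.97, right of every other gene shown, and the list medians run from -0.19 (Nrf2 targets) to 0.21 (glucocorticoid receptor targets).

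Among all genes, Mt1 was the gene most like Mt2 in its values over the 8 arrays. Likeness was measured as the mean absolute distance over the 8 arrays after each gene's mean was subtracted, and for this pair it was 0.19. The next genes for Mt2 were Serpina3n (0.23), the membrane protein gene Tmem140 (0.24), the amino acid transporter Slc7a8 (0.24) and Cd5l, a protein secreted by macrophages (0.24). For Mt1, Mt2 was 10th in order, at 0.19. The genes nearest to Mt1 were Tcap, a titin-binding muscle protein (0.10), Tmem140 (0.16), Cd5l (0.17), the sterol hydroxylase Cyp27a1 (0.17) and the glycosyltransferase Galnt15 (0.17). Tmem140 and Cd5l were the 2 genes in both lists of 5. Tcap measured 6.00, 6.39, 6.60 and 6.48 in spaceflight replicates 1 to 4, against 5.86, 5.77, 6.02 and 5.48 in ground-control replicates 1 to 4. Its difference was 0.58 ± 0.16 (limma adjusted p = 0.33), and within ground control it was highest in replicate 3 and lowest in replicate 4, as Mt1 was. These distances compare patterns over the same 8 arrays, so all genes share the RNA samples and the difference between the groups. They do not compare levels between genes. Slc39a10 lay at 0.83 from Mt2 and at 0.72 from Mt1, among the farthest of all genes. The opposite group differences of these genes, given above, already make such distances large, so they are not a further result.

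**Figure D5:**
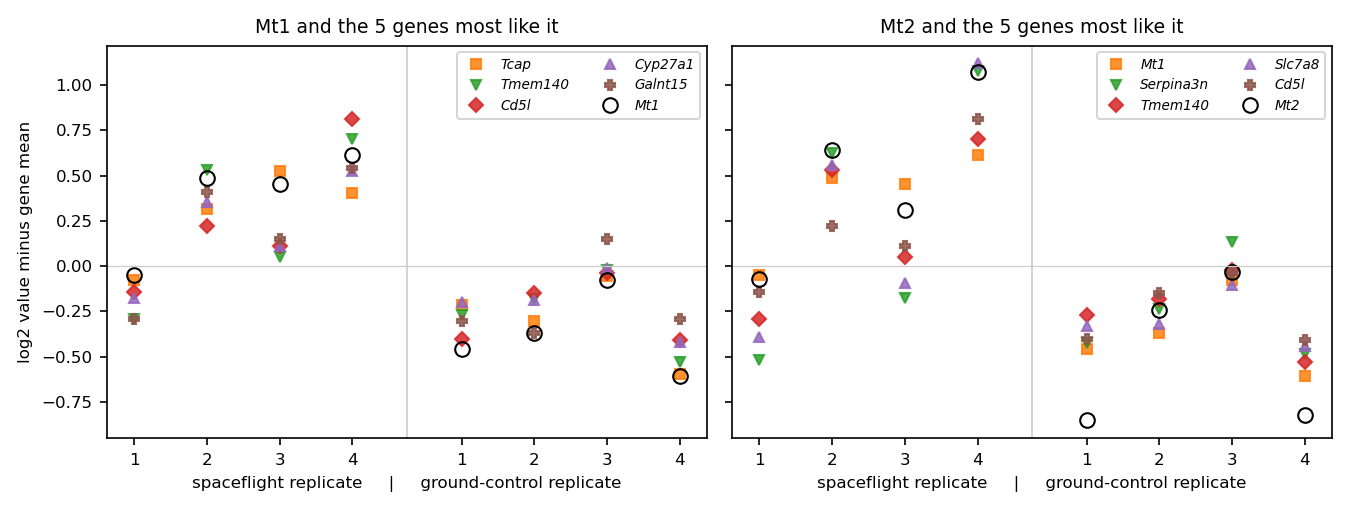
Log2 value minus the gene's mean over 8 arrays (y axis) for Mt1 (left, open circles) and Mt2 (right, open circles) with the 5 genes most like each, by array (x axis, spaceflight replicates left of ground-control replicates). All genes shown are lower in spaceflight replicate 1 than in spaceflight replicates 2 and 4, and the highest ground-control value of each is in replicate 3.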

How the data were processed

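Thymus RNA of 8 mice was measured on Affymetrix arrays. The authors deposited log2 values per probe set. RMA, a background correction with quantile normalization and a median-polish summary, and limma are named per the submitters' processing notes, and versions, build and filters are not given in the sources used here. Of 35557 probe sets, 6614 at the low end of the identifiers, an unbroken run in which 0 carry a gene, were treated as controls and left out, a choice made after seeing the data. Of the other 28943, 21789 had 1 gene, 1621 several and 5533 none, and 21698 of those with 1 gene were matched to RefSeq (GRCm38.p6) by Entrez identifier. Each of 19938 genes was read by its brightest 1-gene probe set. All kept probe sets were fitted with limma 3.58.1 in R 4.3.3 (two-sided, without a block), and p-values were adjusted over genes (Benjamini-Hochberg, threshold 0.05). A first fit took the variance prior from the 1 probe set of each gene only. It was replaced, after its calls were seen, by the fit over all kept probe sets, and is kept as an alternative. Differences are spaceflight minus ground control. The members and lists were chosen with earlier results of these data known. Named are the 8 members, up to 4 genes of smallest p per process list, zinc transporters at an unadjusted p under 0.05, and the 5 genes most like Mt1 and Mt2. Rag1, Rag2, Cd8a and Alb were named after their values were seen. Simulated data with 50 of the 19938 genes shifted at each size gave a recovery of 26% at 0.5, 76% at 1 and 92% at 2, with 5 false calls among 149. The simulated noise was independent between genes and arrays, and the fit of the real data called 10 genes. These rates therefore do not give the recovery to be had in the real data. Precision is limited by the number of arrays. Alternatives were other centring, repeated quantile normalization, a filter on dim genes, no probe set left out, averaged probe sets, other variance models, a replicate block and arrays left out.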

Additional observations from a re-analysis of the deposited data

Results flagged for a closer look

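An array far from the other 3 of its group was found in 5 of 92 groups looked at (46 named genes, 2 groups each). With the genes of the cell type marker lists included it was found 15 times in 196 groups, and the genes were limited to those named after that wider result was seen. Chance flags about 1 group in 20. Of the 8 genes, Mt3 had ground-control replicate 4 at 7.29, with the next at 6.96. Mtf1 had spaceflight replicate 3 at 6.41, with the next at 6.71. Slc39a6 had ground-control replicate 1 at 7.59, with the next at 7.36. Among other named genes, the copper transporter Slc31a2 had spaceflight replicate 1 at 6.97, with the next at 7.47, and Galnt15 had ground-control replicate 3 at 7.05, with the next at 6.61.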

How the results depend on the processing

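Over 19 alternatives, 148 of the 152 differences of the 8 genes kept their direction, and 0 passed the adjusted threshold (limma). Those that changed sign were small: Mt4 was 0.03 without spaceflight replicate 1 and 0.01 without spaceflight replicate 4 (from -0.25 to 0.03 over arrays left out), and without spaceflight replicates 1 and 3 Mt3 was -0.07 and Slc39a6 0.02. The counts of members at an unadjusted p under 0.05 stayed at 2 or 3 higher and 1 lower. The count of all genes called by limma, 10 as reported, was 3 with arrays centred on their 75th percentiles, 6 without spaceflight replicates 1 and 3, and from 2 to 9 when single arrays were left out. With the variance prior from the 1 probe set of each gene only, the fit that was run first and replaced after its calls were seen, it was 16, with adjusted p-values of 0.13 for Mt1, 0.224 for Mt2 and 0.167 for Slc39a10. With the replicate number as a block it was 0 (1700 genes at an unadjusted p under 0.05), and Mt1 differed by 0.75 (adjusted p = 0.377). Same-numbered arrays did not deviate together (correlations of deviations 0.24, -0.30, -0.10 and 0.07), so the numbers were not taken to pair the mice. Zinc transporters at an unadjusted p under 0.05 were 0 higher and 1 lower as reported. They were 1 higher with 75th-percentile centring, 1 higher and 2 lower with repeated quantile normalization, and 1 higher without spaceflight replicates 1 and 3. When single arrays were left out they were from 0 to 2 higher and from 1 to 4 lower, of 24. The share of all genes at that threshold moved too, from 5.74% to 16.3% over the alternatives. It was 16.1% without spaceflight replicate 4, the setting with 4 transporters lower. The cause of these shifts was not tested.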
